A study of Mus musculus with 11 samples.

Results

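The 7 genes Adipoq, Lep, Retn, Cfd, Hp, Rbp4 and Rarres2, which encode hormones and other proteins secreted by fat cells, were followed through RNA-seq of mouse eyes with and without the microRNA miR-211. They were chosen by name as listed secreted products of adipocytes, with each symbol mapped to its Ensembl gene identifier, and are 7 of the 38393 genes listed for every library. Libraries came from whole eyes of C57BL/6 mice aged 1 to 2 months, with retina, RPE (retinal pigment epithelium), choroid, sclera and ciliary body kept and lens and cornea taken off. There were 5 libraries from wild type (WT) animals and 6 from miR-211-KO animals (KO), in which the precursor of the microRNA is deleted in the germline and therefore in every tissue. The labels call the libraries biological replicates and give no other treatment. By the study's methods all KO animals were male, whereas the WT animals were of both sexes. The labels do not name fat, and any adipose tissue in these samples would have come with the dissected eye.

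Adipocytes release proteins that act on other tissues, collectively named adipokines. Adiponectin, encoded by Adipoq, and leptin, encoded by Lep, are the best known of them. Adiponectin acts through the receptors Adipor1 and Adipor2 on glucose and fatty acid use, and leptin reports the size of the fat stores to the brain through Lepr. Others belong to innate immunity or to transport in blood. Adipsin (Cfd) is the protease of the alternative complement pathway that cuts Cfb, haptoglobin (Hp) binds free haemoglobin, Rbp4 carries retinol to the receptor Stra6, and chemerin (Rarres2) attracts leukocytes through Cmklr1.

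The deleted microRNA and its close relative are shown first, because their shared seed (bases 2 to 8, in capitals) is the part that pairs with target transcripts.
mmu-miR-211-5p: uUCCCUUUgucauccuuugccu
mmu-miR-204-5p: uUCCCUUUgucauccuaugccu
In RefSeq annotation of GRCm38.p6, miR-211-5p lies on chromosome 7 from 64205831 to 64205852 on the plus strand, within the host gene Trpm1, and miR-204-5p lies on chromosome 19. Both have the same seed. The site that pairs with this seed, AAAGGGA, was searched on the transcript strand in the longest 3′ UTR that Gencode M21 gives each gene, and 0 of the 7 members held it, against 16.5% of the 14573 tested genes with a 3′ UTR. The members' 3′ UTRs ran from 72 bases in Cfd to 2698 bases in Lep, and the absence of these letters says nothing more than that.

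All 7 genes lie on GRCm38, and they are scattered. Adipoq is on chromosome 16 from 23146536 to 23158028, Cfd on chromosome 10 from 79890853 to 79892655, Lep on chromosome 6 from 29060220 to 29073877 and Retn on chromosome 8 from 3655770 to 3660110, all on the plus strand. On the minus strand are Hp, on chromosome 8 from 109575128 to 109579172, Rbp4, on chromosome 19 from 38116629 to 38125281, and Rarres2, on chromosome 6 from 48569696 to 48572789. Rarres2 overlaps Lrrc61 on the opposite strand, and reads from the shared stretch cannot be told apart without strand information. Lrrc61 itself stayed between 25.5 and 34.0 CPM (normalized counts per 1000000 assigned read pairs) in the 11 libraries.

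Promoter sequences are given for 3 genes of this set that differ strongly between libraries, each as the 250 bases before and the 50 after the annotated start (RefSeq, GRCm38.p6). Capitals mark matches to motifs searched on both strands, CCAAT (the core of the CCAAT box) and TTGCNNAA (a loose form of the C/EBP site), with no overlap between matches.
Adipoq: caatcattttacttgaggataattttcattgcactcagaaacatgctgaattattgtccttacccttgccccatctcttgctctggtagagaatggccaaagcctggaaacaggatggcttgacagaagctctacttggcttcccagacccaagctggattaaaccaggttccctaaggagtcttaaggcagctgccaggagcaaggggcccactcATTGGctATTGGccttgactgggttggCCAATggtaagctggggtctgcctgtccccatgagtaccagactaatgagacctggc
Cfd: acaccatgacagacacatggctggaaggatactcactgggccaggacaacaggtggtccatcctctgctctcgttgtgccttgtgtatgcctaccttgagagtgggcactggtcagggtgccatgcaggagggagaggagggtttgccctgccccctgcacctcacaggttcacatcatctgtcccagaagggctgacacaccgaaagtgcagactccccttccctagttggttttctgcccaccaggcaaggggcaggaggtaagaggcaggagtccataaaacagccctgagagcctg
Lep: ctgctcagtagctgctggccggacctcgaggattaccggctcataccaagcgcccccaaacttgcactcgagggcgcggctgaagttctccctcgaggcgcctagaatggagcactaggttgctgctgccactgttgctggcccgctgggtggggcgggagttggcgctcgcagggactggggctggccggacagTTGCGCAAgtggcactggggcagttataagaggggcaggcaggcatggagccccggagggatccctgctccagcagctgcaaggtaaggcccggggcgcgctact
The Adipoq window, on chromosome 16 from 23146286 to 23146585, held 3 matches to CCAAT, on one or the other strand, whereas the Lep window, on chromosome 6 from 29059971 to 29060270, held 1 match to TTGCNNAA. No match to either motif, to AGGTCA or to TATAAA was found in the Cfd window, on chromosome 10 from 79890603 to 79890902. Of all 32851 promoter windows of the same length, 37.4% held CCAAT and 10.8% TTGCNNAA, so these matches are common and describe the sequence only.

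Depth and the libraries that stood apart bear on all values below. Between 20282279 and 36317730 read pairs were assigned to genes in a library, so that 1 CPM was 20.3 read pairs at the lowest total. By the column names of a supplementary table of the study, 2 WT and 3 KO libraries (WT replicates 1 and 2, KO replicates 1 to 3) belong to a series named by mouse number, and 3 WT and 3 KO libraries (WT replicates 3 to 5, KO replicates 4 to 6) to a series named by age. The labels do not say what else sets these series apart. Each library's counts of 59 listed genes, members left out, followed 1 column to within 0.199% (coefficient of variation), against at least 22.0% for the next best. No library, WT or KO, held a read of Mir211, whose loss these counts do not check, and Trpm1 was read at 331 to 496 CPM. Xist, which marks female cells, was read at no less than 796 CPM for WT replicates 1, 3 and 5, and no other library exceeded 1.29 CPM. Lens genes, which should be absent after dissection, summed to 74890 CPM for WT replicate 4 and 17950 CPM for KO replicate 3, with 2745 CPM as the next highest sum.

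Adiponectin messenger RNA was present at very unequal levels. Adipoq was read at 41.5, 25.4, 0.346, 9.28 and 4.14 CPM in WT replicates 1 to 5, and at 0.545 to 19.4 CPM in KO libraries, with a median of 0.864 CPM (n = 6). The groups overlapped: WT replicate 3 was the lowest library of all, and KO replicate 1 was above all WT libraries but replicates 1 and 2. On average Adipoq was at 16.1 ± 17.1 CPM (SD, n = 5) for WT against 4.22 ± 7.49 (SD, n = 6) for KO. The log2 fold change of KO against WT from edgeR was -1.94 (standard error, SE, of 1.05, unadjusted p = 0.0696, adjusted p = 1.00 over 15767 genes), which did not pass the threshold of 0.1. A bulk sample cannot tell fewer adipocytes from less Adipoq RNA in each of them, and the same holds for every gene here.

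Leptin was close to the limit of detection. Lep was counted 10, 29, 1, 2 and 2 times in WT replicates 1 to 5 and 15, 12, 0, 0, 2 and 0 times in KO replicates 1 to 6. It exceeded 1 CPM in 1 library, WT replicate 2, at 1.19 CPM, and did not reach the 1 CPM in 5 libraries that the test required. A count of 0 allows up to 3 read pairs, which are 0.120 to 0.134 CPM in the KO libraries with none. Fitted among all 25763 genes with a count, its log2 fold change was -0.85 (SE 1.25, adjusted p = 1.00 by edgeR), and without WT replicate 2 it was 0.40. A direction for Lep is therefore not given by these data.

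Resistin, encoded by Retn, is made in mice mainly by adipocytes and opposes insulin. It varied far less than adiponectin. Retn was read at 10.46, 4.47, 3.02, 4.26 and 3.11 CPM in WT replicates 1 to 5 and at 2.28 to 3.27 CPM in KO libraries, with a median of 2.83 CPM. WT replicates 1, 2 and 4 were above all KO libraries, and 4 of 6 KO libraries were below all WT libraries. Its log2 fold change was -0.87 (SE 0.33, unadjusted p = 0.0081, adjusted p = 1.00 by edgeR), and without WT replicate 1 it was -0.41. A two-sided exact permutation test of log2 CPM over all assignments of the genotypes gave an unadjusted p = 0.0152.

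Adipsin followed adiponectin from library to library. Cfd was read at 120.2, 43.5, 2.33, 29.9 and 17.2 CPM in WT replicates 1 to 5, and between 0.993 and 43.9 CPM in KO libraries, with a median of 2.19 CPM. As for Adipoq, KO replicate 1 lay within the upper WT values and WT replicate 3 within the KO values, so the groups overlapped. The means were 42.6 ± 46.0 CPM (SD, n = 5) for WT against 9.83 ± 16.9 (SD, n = 6) for KO, with a log2 fold change of -2.12 (SE 1.00, unadjusted p = 0.0371, adjusted p = 1.00 by edgeR). Haptoglobin, which is made in liver and in fat, had a profile close to that of Cfd. Hp was read at 20.04, 13.5, 0.432, 6.97 and 2.78 CPM in WT replicates 1 to 5, and between 0.173 and 9.85 CPM in KO libraries, with a median of 0.373 CPM. Its log2 fold change was -1.94 (SE 1.04, unadjusted p = 0.0646, adjusted p = 1.00 by edgeR). All KO libraries other than replicates 1 and 2 were at or below the level of WT replicate 3, the lowest WT library.

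Rbp4, the retinol carrier of plasma, was read at 6.28, 3.16, 0.993, 2.06 and 2.36 CPM in WT replicates 1 to 5 and at 0.747 to 1.68 CPM in KO libraries, with a median of 1.25 CPM. All WT libraries except replicate 3 were above every KO library. The difference of -1.27 on the log2 scale (SE 0.41, unadjusted p = 0.00203) ranked 19th of 15767 genes by p-value, with an adjusted p of 1.00 by edgeR, and the two-sided exact permutation test gave an unadjusted p = 0.0303. That p lay between 0.0556 and 0.0714 when WT replicate 1 or 2 or KO replicate 3, 5 or 6 was left out. At 19 to 177 read pairs per library, its value in any single library is imprecise. Chemerin, encoded by Rarres2, had the smallest fitted difference. It was read at 24.3, 18.2, 13.9, 14.95 and 15.4 CPM in WT replicates 1 to 5 and at 10.4 to 17.6 CPM in KO libraries, with a median of 13.4 CPM. The genotypes overlapped in part: 4 of 6 KO libraries were below all WT libraries, and KO replicates 1 and 3 lay within the WT range. WT replicates 1 and 2 were above every KO library. The log2 fold change of Rarres2 was -0.36 (SE 0.19, unadjusted p = 0.0638, adjusted p = 1.00 by edgeR).

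**Figure D1:**
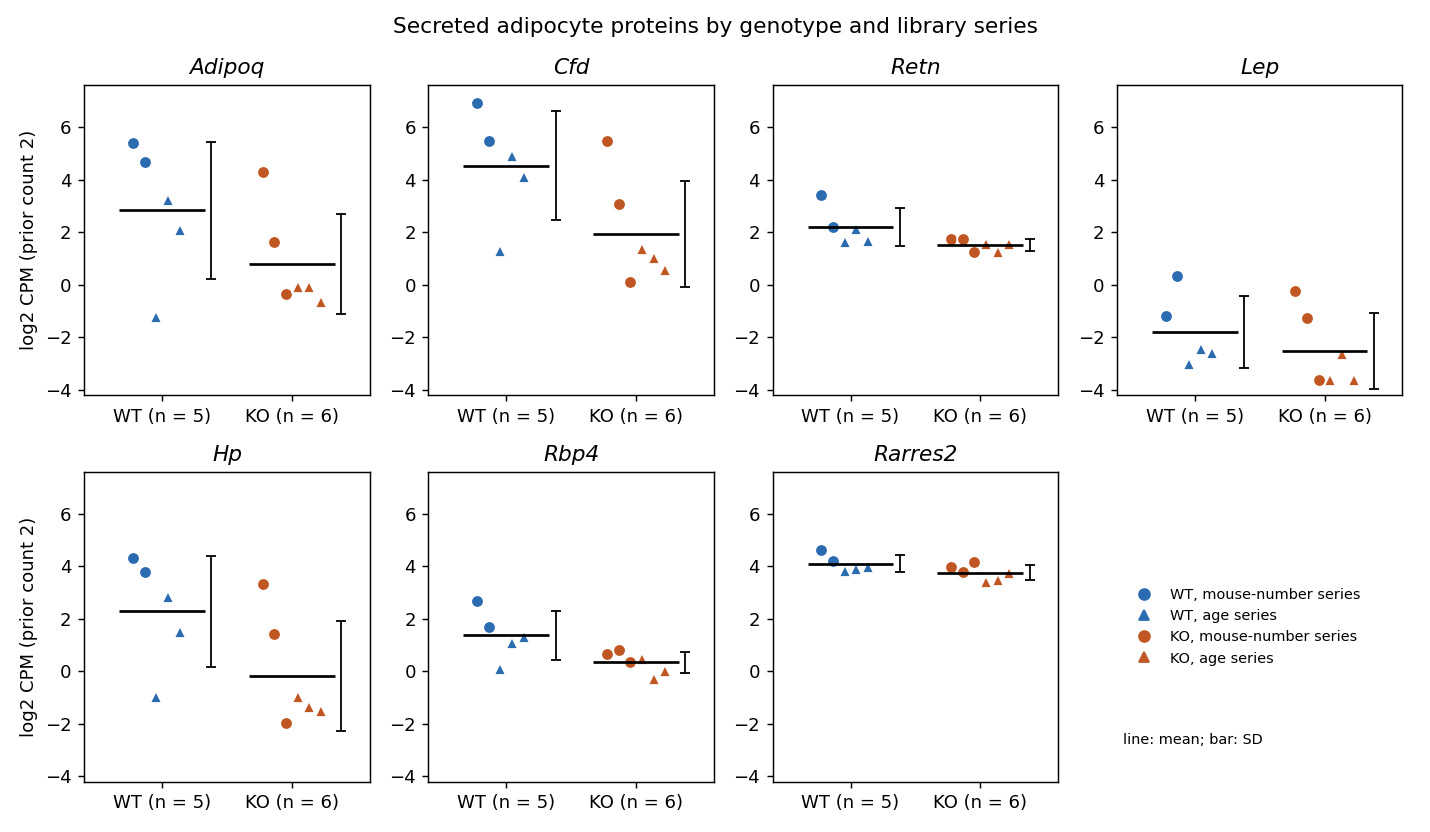
log2 CPM (vertical axis, prior count of 2) of each gene in every library, with WT and KO on the horizontal axis, the series as symbol, the mean as line and the SD as bar. Adipoq, Cfd and Hp spread over several log2 units within each genotype, while the Rarres2 libraries lie close together around means of 4.09 in WT and 3.75 in KO.

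Put together, all 6 members that passed the filter had lower fitted levels in KO, and 0 of them passed the threshold of an adjusted p under 0.1, which 0.00634% of all tested genes did. An unadjusted p under 0.05 with lower levels in KO was found for Cfd, Retn and Rbp4, against 1.77% of all tested genes. Adipoq, Cfd, Hp and Rbp4 are among the 63 genes that the study listed on these same libraries at an adjusted p under 0.1. The fit here called 0 of these 4 and 1 of all 15767 tested genes, so it did not reproduce those calls. The reason for this was not tested. Because the study selected these 4 genes on the same libraries, their direction is not independent evidence. The median log2 fold change of the 6 members was -1.60, and that of all tested genes 0.00. With edgeR's quasi-likelihood test 0 members passed as well, at log2 fold changes of -2.13 to -0.36, and Retn and Rbp4 had an unadjusted p under 0.05. DESeq2 also called 0 members, with the same pair below 0.05 unadjusted.

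Between the library series the members differed past the threshold. In a fit with genotype and series together, Adipoq was 3.12 higher on the log2 scale in the mouse-number series than in the age series (SE 0.76, adjusted p = 0.00136 by edgeR), and Hp was 3.03 higher (SE 0.78, adjusted p = 0.00274). Cfd was higher by 2.81 (SE 0.75, adjusted p = 0.0036), Rbp4 by 0.97 (adjusted p = 0.00937), Retn by 0.60 (adjusted p = 0.090) and Rarres2 by 0.47 (adjusted p = 0.00137). Thus 6 of 6 tested members were higher in the mouse-number series at an adjusted p under 0.1, where 21.7% of all tested genes were. Lep, in the fit of all genes with a count, differed by 3.39 (SE 0.93, adjusted p = 0.00212). Each of the 7 coefficients stayed above 0 when any 1 library was left out, and the call was kept in each of these fits by Adipoq, Cfd, Hp, Rbp4 and Rarres2, whereas Retn lost it without WT replicate 1 (0.23, adjusted p = 0.398) and in 6 other fits. Mouse number and age series may differ in several ways that the labels do not give, and these cannot be told apart.

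With the series in the fit, the KO differences were larger relative to their errors. The log2 fold changes were -2.38 for Adipoq (SE 0.77, adjusted p = 0.395), -2.70 for Cfd (SE 0.75, adjusted p = 0.285) and -2.72 for Hp (SE 0.78, adjusted p = 0.312). For Retn the value was -0.84 (adjusted p = 0.395), for Rarres2 -0.40 (adjusted p = 0.312) and for Lep -1.17 (adjusted p = 0.812). Rbp4 passed the threshold with edgeR, at -1.26 (SE 0.31, adjusted p = 0.0798), as 0.0634% of all tested genes did. Unadjusted, 6 of 6 tested members were lower in KO at p under 0.05 in this fit, against a background of 5.23%. The study selected Adipoq, Cfd, Hp and Rbp4 on these same libraries, and the members are not independent of each other. This count is therefore not independent evidence. The call of Rbp4 was lost in 7 of the 11 fits that left out a library, among them the one without WT replicate 1 (-0.95, adjusted p = 0.666), and with the quasi-likelihood test (adjusted p = 0.590). Adipoq, Cfd and Hp passed without WT replicate 3 (adjusted p = 0.078, 0.075 and 0.088 by edgeR), where 44 of all tested genes did. They also passed without KO replicate 1 (adjusted p = 0.014, 0.00297 and 0.0076 by edgeR), where 89 of all tested genes did. Without WT replicate 2, Cfd and Rarres2 passed (adjusted p = 0.0646 and 0.0741 by edgeR), where 148 of all tested genes did.

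**Figure D2:**
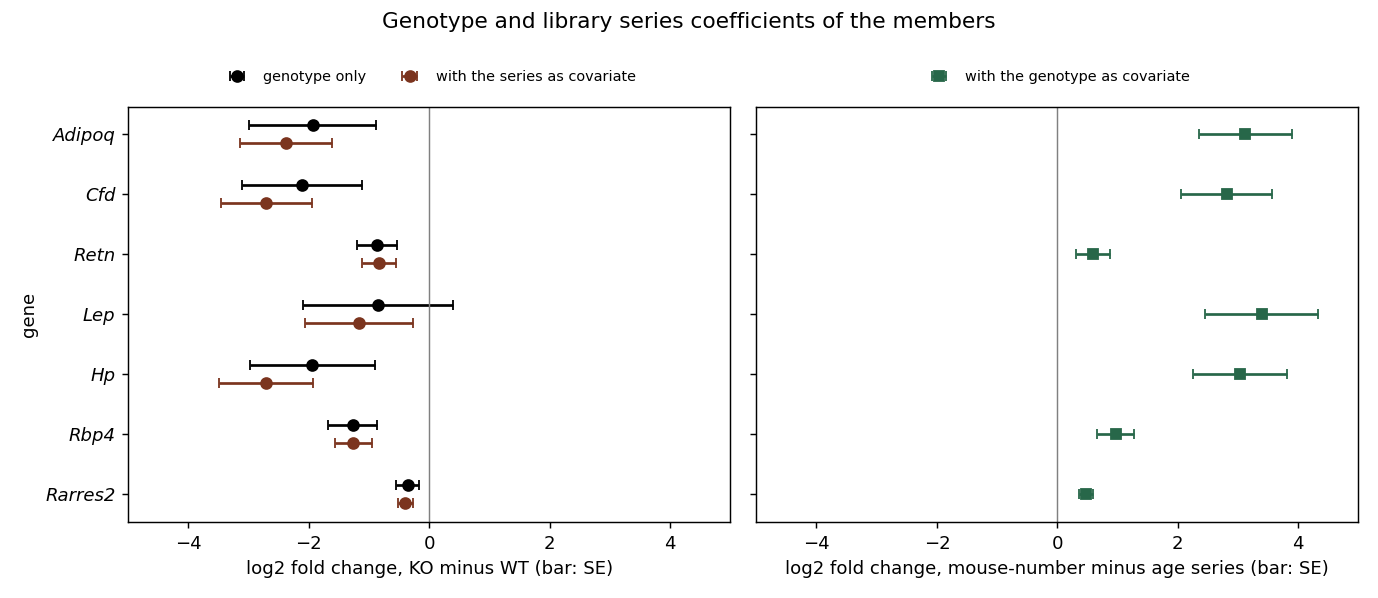
log2 fold change (horizontal axes) of KO against WT on the left, without and with the series as covariate, and of mouse-number against age series on the right, for each gene (vertical axis), with the standard error as bar. The genotype estimates lie left of 0, from -2.12 to -0.36 without the series, and the series estimates lie right of 0, from 0.47 to 3.39.

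Whether the genotype difference itself varied between the series was tested with an interaction term, and 0 of the 6 members passed (adjusted p = 1.00 for each by edgeR), as 0.019% of all tested genes did. Retn came nearest, with an unadjusted p of 0.0537. Its log2 fold change was -1.35 within the mouse-number series and -0.38 within the age series. For Cfd these values were -2.21 and -3.07, and for Rbp4 -1.68 and -0.86. Adipoq had -2.12 and -2.57, Hp -2.0 and -3.28, and Rarres2 -0.45 and -0.35, in the same order. Each of these 6 members was thus lower in KO in the fit of each series. Among these values, only Rbp4 in the mouse-number series (adjusted p = 0.0712) and Cfd in the age series (adjusted p = 0.0792) passed the threshold with edgeR. The share of all tested genes that passed in these fits is not given here. Exchanging genotypes only within each series, the two-sided exact permutation test gave an unadjusted p = 0.005 for Retn, the smallest value possible, 0.025 for Rbp4, 0.035 for Rarres2, 0.05 for Cfd and Hp, 0.125 for Adipoq and 0.325 for Lep. These p-values stand beside 0.162 for Adipoq, 0.0736 for Cfd, 0.0823 for Hp, 0.0909 for Rarres2 and 0.418 for Lep when genotypes were exchanged over all libraries.

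Single libraries set the size of the differences. Leaving out KO replicate 1, the KO library richest in Adipoq, Cfd and Hp, moved the log2 fold change of Adipoq to -3.75 (adjusted p = 0.134), that of Hp to -3.50 (adjusted p = 0.261) and that of Cfd to -3.81, which passed the threshold (adjusted p = 0.041 by edgeR). Leaving out WT replicate 1, the WT library richest in all members but Lep, moved them to -1.21, -1.38 and -1.24. The share of all tested genes that passed without KO replicate 1 in this fit of genotype alone is not given here. Rbp4 ran from -1.50 without WT replicate 3 to -0.80 without WT replicate 1, and Rarres2 from -0.44 to -0.20. Without WT replicate 3, in which Adipoq was lowest, the unadjusted exact permutation p was 0.0333 for Adipoq, 0.0286 for Cfd and 0.0286 for Hp. Without KO replicate 1 the unadjusted exact permutation p was 0.0238 for Cfd and 0.0159 for Hp, and without KO replicate 3 it was 0.0397 for Rarres2. In each case the lowest WT or the highest KO library of the gene was left out, which by itself widens the difference. For Adipoq the same p was 0.324 without WT replicate 1, 0.305 without WT replicate 2, 0.248 without WT replicate 4 and 0.0794 without KO replicate 1.

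**Figure D3:**
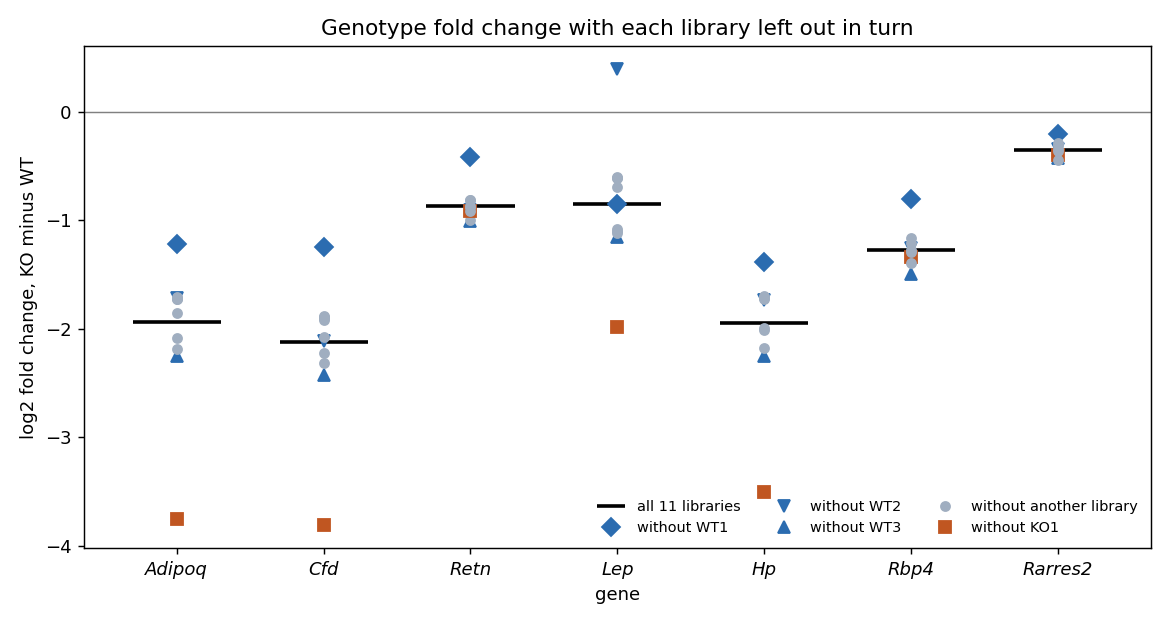
log2 fold change of KO against WT (vertical axis) for each gene (horizontal axis), with all 11 libraries as a line and with each library left out in turn as a symbol. Without KO replicate 1 the points of Adipoq, Cfd and Hp fall to between -3.81 and -3.50, and for Lep the point without WT replicate 2 lies above 0, at 0.40.

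The members fell into a tightly linked group and a looser one. Over the 11 libraries the log2 CPM of Cfd and Hp correlated with r = 0.992, that of Adipoq and Hp with r = 0.976 and that of Adipoq and Cfd with r = 0.972. Plin1, which coats the fat droplet of adipocytes and is no member, followed these genes with r of 0.969 to 0.970. Its own values were 23.5, 14.8, 0.518, 8.23 and 1.74 CPM in WT replicates 1 to 5 and 0.216 to 11.3 CPM in KO libraries, so it was high and low in the same libraries as Adipoq. For Retn and Rbp4 the correlation with Plin1 was 0.795 and 0.797, and with each other 0.908. Rarres2 followed Plin1 with r = 0.670 and Lep with r = 0.830. All points share library, depth, genotype and series, so these correlations describe the profiles and nothing further.

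**Figure D4:**
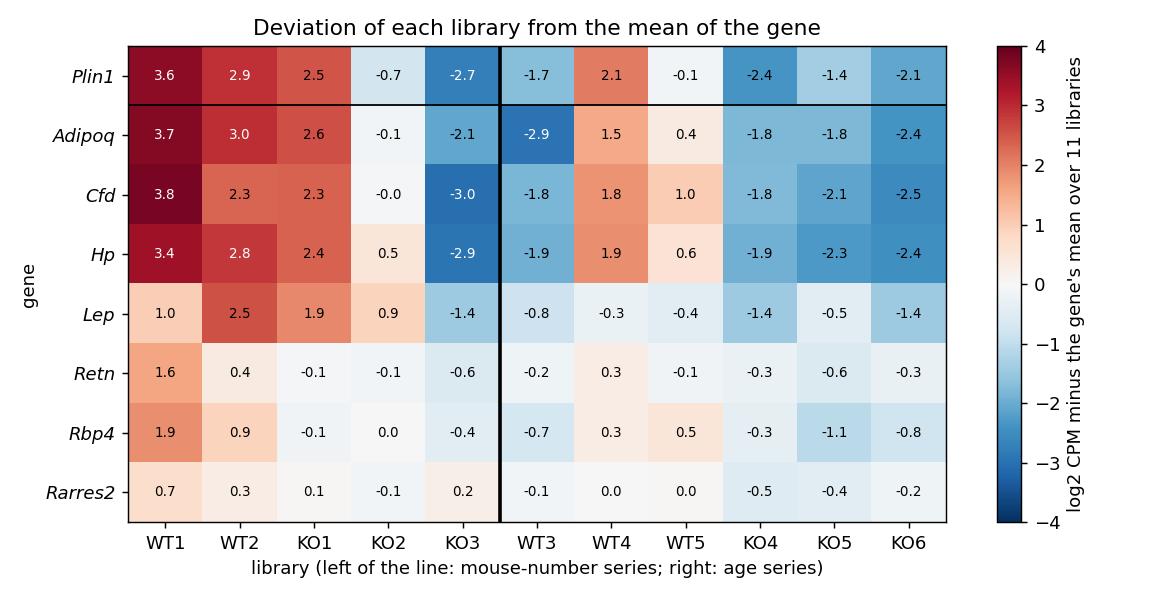
log2 CPM of Plin1 and the members (rows) in each library (columns), given as the difference from the gene's mean over the 11 libraries by colour and by the printed number. WT replicates 1 and 2, KO replicate 1 and WT replicate 4 are high for Plin1, Adipoq, Cfd and Hp, and the rows of Retn, Rbp4 and Rarres2 are flatter.

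Among all tested genes that are no members, those most like Adipoq were Fabp4, the fatty acid carrier of adipocytes (r = 0.987), Sync, Pnpla2, the lipase that starts triglyceride breakdown, Pck1 and Pcsk6. Closest to Cfd was Cidec, a fat droplet protein (r = 0.989), followed by Pck1, Plin1, Pcsk6 and Cyp2e1. Cidec was also nearest to Hp (r = 0.987), ahead of Cyp2e1, Pcsk6, Foxo4 and Plin1. Retn was most like Sult5a1 (r = 0.957), Mrgprf, Sept9, C3 and Cyp1b1, and Rbp4 most like Irf4 (r = 0.944), Mrgprf, Ncf1, C3 and Inppl1. Rarres2 ran nearest to Tmem50a (r = 0.975), Rhoj, Crtap, Cmtm3 and Cd14, and Lep, at its low counts, to Plpbp (r = 0.960), Eya4, Sod2, Hspa12b and Cnih4. Thus the nearest genes of Adipoq, Cfd and Hp included fat storage genes such as Cidec, Plin1 and Pnpla2, and the 5 nearest genes of each other member held none of these.

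Relative to Adipoq, the other members were not in a fixed proportion. The log2 ratio of counts to Adipoq ran from 0.51 in KO replicate 3 to 2.68 in WT replicate 3 for Cfd and from -1.87 in KO replicate 3 to 0.30 in WT replicate 3 for Hp. For Rarres2 it ran from -0.77 in WT replicate 1 to 5.25 in WT replicate 3, and for Retn from -2.56 in KO replicate 1 to 3.05 in WT replicate 3. Ratios of Cfd and Hp therefore stayed within a few log2 units, while those of Rarres2 and Retn were low where Adipoq was high and high where it was low. A gene with flatter levels divided by Adipoq gives such ratios by arithmetic. Between genotypes none of the 6 ratios differed at p under 0.05 in the two-sided exact permutation test, with p from 0.132 for Cfd, at a KO minus WT difference of -0.56 in log2 ratio, to 0.403 for Lep, at 0.68.

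Levels were compared between genes per transcript length, on the deposited FPKM values (fragments scaled by transcript length and library size). By median over the 11 libraries the order was Rarres2 at 22.1 FPKM, Cfd at 9.65, Retn at 3.72, Adipoq at 2.41, Hp at 2.04, Rbp4 at 1.69 and Lep at 0.03 FPKM. Of the 6 pairs of neighbours, Adipoq was above Hp in 10 of 11 libraries (two-sided exact sign-flip permutation test of log2 FPKM, p = 0.00879 adjusted over the 6 pairs) and Rbp4 above Lep in 11 of 11 (exact permutation p = 0.00586 adjusted likewise). The other neighbours did not differ beyond their spread, and Rarres2 exceeded Cfd in 7 of 11 libraries (exact permutation p = 0.142 adjusted). Cfd ranked first in WT replicates 1, 2 and 4 and in KO replicate 1, and Rarres2 first in all others. Across libraries Cfd ran from 1.14 to 137.5 FPKM, whereas Rarres2 ran from 16.4 to 37.0 FPKM.

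**Figure D5:**
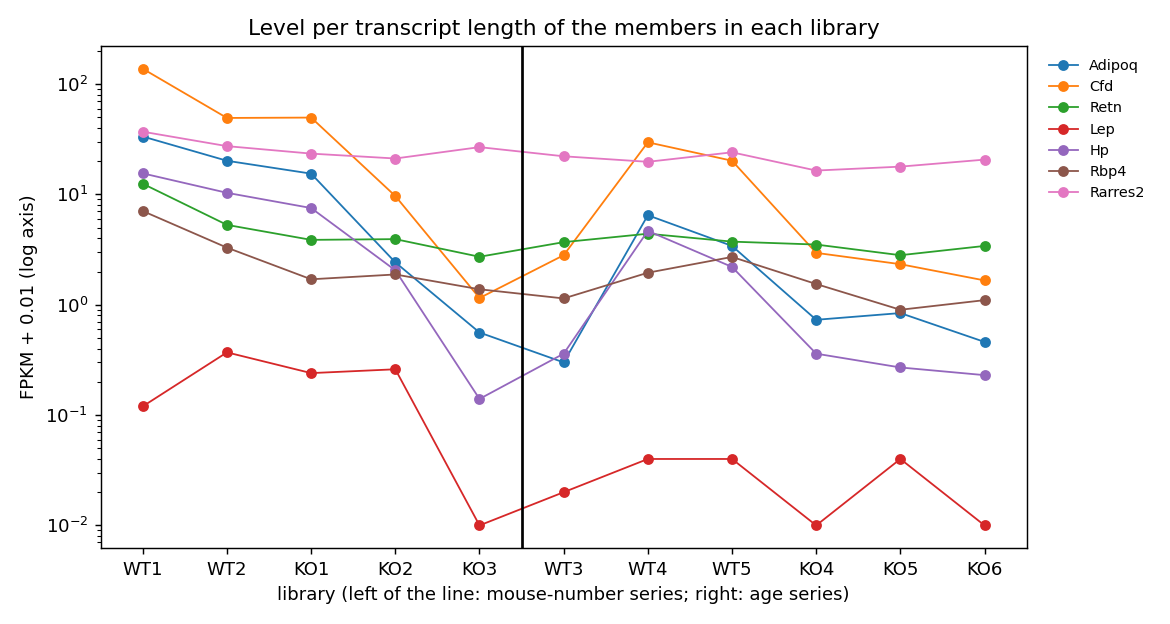
FPKM of each gene plus 0.01 on a log axis (vertical) in each library (horizontal), with the mouse-number series left of the line and the age series right of it. Cfd runs between 1.14 and 137.5 FPKM and crosses Rarres2, which stays between 16.4 and 37.0 FPKM, and Lep is lowest in all libraries.

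No receptor or partner of these proteins passed the test for genotype. Of 32 listed genes 28 were tested, 0 had an adjusted p under 0.1 in KO against WT, and 5 were lower in KO at an unadjusted p under 0.05 (Cmklr1, Hmox1, C3, Cfb and C5ar1), where 1.77% of all tested genes were, and 0 higher. Their median log2 fold change was -0.23, beside 0.00 for all tested genes. Adipor1 was at 448 ± 44.9 CPM (SD, n = 5) for WT against 461 ± 37.5 (SD, n = 6) for KO, a log2 fold change of 0.04 (SE 0.14). For Adipor2 the means were 127 ± 11.8 and 127 ± 50.2 CPM, with KO replicate 1 at 226.8 CPM and the others at 94.4 to 142.5 CPM. Lepr was at 5.07 ± 0.51 CPM for WT and 3.84 ± 1.08 CPM for KO, and its log2 fold change was -0.41 (SE 0.21, adjusted p = 1.00 by edgeR).

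Stra6, the retinol receptor of the RPE, was at 84.8 ± 14.98 CPM (SD, n = 5) for WT against 83.9 ± 16.4 (SD, n = 6) for KO, a log2 fold change of -0.02 (SE 0.17). Ttr, which binds Rbp4 in plasma and is made in the RPE, was at 696 ± 151 and 629 ± 76.9 CPM, with a log2 fold change of -0.15 (SE 0.19). Cmklr1, the chemerin receptor of macrophages, had a log2 fold change of -0.63 (SE 0.27, unadjusted p = 0.0169, adjusted p = 1.00 by edgeR), with 7.66 CPM in WT replicate 1 and 2.22 to 4.12 CPM elsewhere, and without WT replicate 1 it was -0.36 (unadjusted p = 0.0886). C3, the complement component on which the adipsin pathway acts, was at 193.5, 27.3, 13.8, 25.2 and 28.2 CPM in WT replicates 1 to 5 and at 6.53 to 26.7 CPM in KO libraries (log2 fold change -1.99, SE 0.62), and without WT replicate 1 its log2 fold change was -0.70. Cfb, the substrate of adipsin, was also highest in WT replicate 1, at 17.4 CPM, against 2.67 to 7.78 CPM in the others (log2 fold change -0.80, SE 0.40, and -0.28 without that library). Hmox1, the haem oxygenase induced after uptake of haptoglobin and haemoglobin, had the largest value of the list at -3.00 (SE 0.86). In WT replicate 4, the library richest in lens genes, it stood at 230.1 CPM, against 4.45 to 14.0 CPM in the others, and without that library the log2 fold change was -0.35.

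Of 40 further secreted proteins of adipocytes 30 were tested. Adjusted, 0 of them passed, 5 were lower in KO at an unadjusted p under 0.05 (Angptl4, Lcn2, Gpx3, Agt and C1qtnf5), against 1.77% of all tested genes, and 0 higher, and the median log2 fold change was -0.30. Lcn2, a carrier of iron-binding siderophores made by fat and neutrophils, had the largest difference, -2.43 (SE 0.78, adjusted p = 1.00 by edgeR). It was at 80.1 CPM for WT replicate 1, at 2.40 to 5.66 CPM in all other libraries, and without WT replicate 1 its log2 fold change was -0.21. Metrnl, a hormone of muscle and fat, followed at -1.0 (SE 0.61), reading 36.8 CPM for WT replicate 4 and no more than 11.8 CPM elsewhere, and without WT replicate 4 the value was -0.06. Angptl4, an inhibitor of lipoprotein lipase, had -0.93 (SE 0.47), and -0.66 without WT replicate 1 (unadjusted p = 0.170). C1qtnf9, a relative of adiponectin, had -0.76 (SE 0.66), which became -0.47 without WT replicate 1, -0.48 without WT replicate 2 and -1.15 without KO replicate 1. Sparc, a matrix protein of many tissues, had the highest mean CPM of the list, at 1007 ± 418 CPM (SD, n = 5) for WT against 805 ± 277 (SD, n = 6) for KO. In the mouse-number series 14 of these 30 genes and 11 of the 28 receptors and partners were higher at an adjusted p under 0.1, against 21.7% of all tested genes. In the other direction 2 receptors and partners were lower, against 14.6% of all tested genes.

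Markers of other cells moved with the members in part. All 13 adipocyte markers were tested, and 0 passed the threshold for genotype. All 13 had lower fitted levels in KO, as did 7713 of all 15767 tested genes. Their log2 fold changes ran from -2.07 to -0.26, with a median of -0.93. The summed level of these markers was 219.7 to 1195 CPM in WT and 209 to 861 CPM in KO libraries. It was 1195, 878, 581 and 861 CPM in WT replicates 1, 2 and 4 and KO replicate 1, the libraries with the highest Adipoq, and at most 418 CPM elsewhere. All 13 were higher in the mouse-number series at an adjusted p under 0.1, as were 21.7% of all tested genes. The same was found for 8 of 8 skeletal muscle markers, whose sum ran from 896 to 7008 CPM in WT and 725 to 7403 CPM in KO libraries. These 8 also had lower fitted levels in KO, at a median log2 fold change of -0.54, and 0 passed the threshold for genotype. So did 6 of 6 macrophage, 6 of 6 fibroblast, 5 of 5 blood, 5 of 5 lens and 3 of 3 tested neutrophil markers. For RPE this was 3 of 6, for rods 1 of 5 and for cones 2 of 5. Of 4 brown adipocyte markers 2 were tested, Cidea at -0.79 and Ppargc1a at 0.03. The brown adipocyte sum was highest in KO replicate 1, at 166.3 CPM, against at most 125.9 CPM in WT libraries. The adipocyte and muscle sums moved together in part. WT replicate 4 and KO replicate 2 had muscle sums of 4283 and 4213 CPM, and adipocyte sums of 581 and 418 CPM. The part of either tissue in the members' levels was not tested. Hepatocyte markers summed to at most 0.452 CPM in every library, and 0 of the 5 passed the filter. Those of the lacrimal gland summed to at most 0.110 CPM. The source of Hp, Rbp4 and C3 was not tested.

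WT replicate 1, highest for Retn, Rbp4 and Rarres2, also had the highest summed neutrophil and bone marrow markers, 141 CPM against 3.97 to 18.7 CPM in the others. This sum was made up mainly of Lcn2 and Ltf (52.8 CPM). Of the other markers on that list, Mpo and Ngp were at 0 and S100a8 at 0.497 CPM in that library, whereas S100a9 was at 7.63 CPM, its highest value, with 2.21 CPM as the next. Its 6 macrophage markers summed to 282 CPM, against 82.8 to 157.5 CPM elsewhere. Their part in the levels of Retn, Rbp4 and Rarres2 was not tested. RPE markers, by contrast, summed to 1712 to 2233 CPM in all libraries, and 0 of 6 tested passed for genotype or series. Xist-positive WT libraries held both the highest and the lowest Adipoq value, 41.5 and 0.346 CPM, and both Xist-negative WT libraries lay between them. All 3 Xist-positive libraries were WT, so sex and genotype cannot be told apart for them, and sex entered no fit.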

How the data were processed

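Total RNA of 11 whole eyes was sequenced in paired 100-nt reads. The authors aligned and quantified them against Gencode mouse M4 (GRCm38) with RSEM 1.2.19 and deposited for each gene an expected count, the estimated read pairs before any scaling, and an FPKM value scaled by transcript length and library size. Whether counting used strand is not given in the sources used here. From the study's methods came edgeR's generalized linear model, the minimum of 1 CPM reached in 5 or more libraries, false discovery rate adjustment and the threshold of 0.1. The likelihood-ratio test was taken because the study's supplementary results hold a likelihood ratio. Rounding of the expected counts, TMM scaling and genotype as the only term were chosen here. The fit used edgeR 4.0.16 in R 4.3.3 with adjustment over 15767 genes. CPM use TMM-scaled totals, and a prior count of 2 enters log2 CPM. Lep failed the filter and was fitted among all 25763 genes with a count. FPKM served for levels between genes (0.01 added before logs), and 0.5 was added to counts in ratios. Two-sided exact permutation tests exchanged libraries over all splits or within series.

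The members and lists were chosen with earlier results of these data known. The text names all members, 7 fixed receptors and partners with the 3 largest differences of that list, the 5 largest differences and the highest mean CPM among the other secreted proteins, and the 5 genes most correlated with each member. One gene that the rule takes among the other secreted proteins is not reported here. Beyond this rule, genes of a list with an unadjusted p under 0.05 are named, chosen after their values were seen. Symbols came from Gencode M21, which is also on GRCm38 and matched 95.4% of identifiers. Promoters are missing from the table used for Hp and Rarres2. The limit of 3 read pairs given for a count of 0 covers counting error only. Each SE from edgeR includes the estimated spread between libraries, and each SD is taken over libraries. The library files differed from each other by more than sampling noise, so no library was counted as a copy. Permutation and count tests were checked on simulated data. Alternatives were other tests, scalings, filters and priors, DESeq2 1.42.0, a series covariate, a replicate block, each series alone and each library left out. Fits with the series that leave out a library or use the quasi-likelihood test were added after the data had been seen.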

Additional observations from a re-analysis of the deposited data

Results flagged for a closer look

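Within a genotype, single libraries stood apart from all others in 5 of the 14 groups of values tested on the CPM scale (7 genes in each genotype), by the gap to the nearest library as a share of the group's range. Chance alone gives about 1 in 20 for normally distributed values. The 14 groups share libraries and are not independent, so this count is a description and no test. Among KO libraries, replicate 1 stood apart for Adipoq at 19.4 CPM, where the next library was at 2.97 CPM, for Cfd at 43.9 CPM, with the next at 8.33 CPM, and for Hp at 9.85 CPM, with the next at 2.61 CPM. Among WT libraries, replicate 1 stood apart for Retn at 10.46 CPM, above 4.47 CPM in the next library, and replicate 2 for Lep at 1.19 CPM, above 0.355 CPM. On the log2 CPM scale 0 of the 14 groups held such a library.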

How the results depend on the processing

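Of 171 recomputed log2 fold changes of the 7 members, 164 kept their direction and their side of the threshold. The number of members past the adjusted p threshold, 0 in the fit with genotype alone, was 1 with the library series as covariate (Rbp4), 1 in the age series alone (Cfd) and 1 in the mouse-number series alone (Rbp4), and ran from 0 to 1 with each library left out (Cfd without KO replicate 1). Cfd passed in the age series alone at -3.07, Rbp4 passed with the series as covariate at -1.26 and in the mouse-number series alone at -1.68, and Cfd ran from -3.81 to -1.24 over the fits that left out a library. In the age series alone 1 receptor or partner (Cd163) passed. The share of all tested genes that passed in either series alone, or without KO replicate 1, is not given here for the fit of genotype alone. The sign of the Lep log2 fold change turned without WT replicate 2, to 0.40, and over the libraries left out it ran from -1.98 to 0.40. The cause of these changes was not tested. A filter of at least 10 counts in every library removed Adipoq, Hp and Lep, so no value was had for them.

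WT and KO libraries with the same number had deviations from the group means that correlated at -0.33 to 0.63, with 3 of 5 over 0.1, and 1 KO and 3 WT libraries correlated best with their own number, so the numbers were not taken to pair the samples. With the number as a block, 2 members passed (Cfd at -2.38 and Hp at -2.37, adjusted p = 7.93e-06 and 0.00246 by edgeR) and 1 other secreted protein (Gpx3). This fit left out KO replicate 6, which has no WT library of its number. It also joined WT replicate 3 of the age series to KO replicate 3 of the mouse-number series. The share of all tested genes that passed in it is not given here.

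In the two-sided exact permutation tests, the difference in log2 CPM ran over the libraries left out for Adipoq from -3.06 to -1.41, for Cfd from -3.42 to -2.01, for Hp from -3.28 to -1.96 and for Rbp4 from -1.34 to -0.70, as well as from -0.42 to -0.22 for Rarres2. Rarres2 passed an unadjusted p under 0.05 with genotypes exchanged within each series, at -0.35. With the series as covariate, 0 to 4 members were called over the libraries left out and 0 with the quasi-likelihood test. Of all 15767 tested genes, these fits called from 1, without WT replicate 1, to 148, without WT replicate 2, and the quasi-likelihood test called 0. Neighbours in the FPKM order that differed numbered 1 to 3, and ratios to Adipoq 0 to 1 (Cfd, without WT replicate 2). Near 1 CPM, which is 20.3 read pairs at the lowest total, depth limits the values of Lep, of Hp in most KO libraries and of Rbp4.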
